A study of Mus musculus with 12 samples.

Results

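The mitochondrial genome encodes core subunits of the respiratory chain, and 6 of these genes were followed across 12 RNA-seq libraries of mouse regulatory T cells (Treg). They are mt-Nd1, mt-Nd2, mt-Nd5 and mt-Nd6 of complex I, mt-Cytb of complex III and mt-Co1 of complex IV. They are 6 of the 36222 genes in the expression table and 6 of the 13 protein genes of the mitochondrial genome. They were chosen by position and by countable reads, as genes that lie wholly or mostly outside a stretch of the mitochondrial genome that has a copy on chromosome 1, where reads align to a single place. The measured values behind that choice were the reads of the mitochondrial genes, with earlier results of these data known, so the levels of the 6 genes relative to the other mitochondrial genes are given as a description.

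The study asked how the loss of Ikaros, the zinc finger transcription factor encoded by Ikzf1, alters gene expression in Treg. YFP+ Treg were sorted from CD4+ spleen T cells of individual WT mice, which carry Foxp3-YFP-Cre, and of individual cKO mice, which carry floxed Ikzf1 together with Foxp3-YFP-Cre, so that every mouse used carries the Cre and its action is tied to cells expressing Foxp3. The cells were taken directly ex vivo from age-matched mice, or were activated for 4 h with plate-bound antibodies to CD3 and CD28 at 1 µg/ml each. There were 3 libraries in each of the 4 groups (each genotype ex vivo and stimulated), described as biological replicates. Ikzf1 stood at 83.8 to 125 TPM in WT ex vivo libraries and at 38.8 to 44.3 TPM in cKO ex vivo libraries, and at 66.4 to 83.4 TPM and 17.0 to 31.6 TPM after stimulation.

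Transcription of the circular mitochondrial genome starts from promoters for each strand and runs through many genes at once. The long transcripts are cut at the tRNA genes that lie between the protein genes, and the released mRNAs then decay at their own rates. All mitochondrial protein genes but mt-Nd6 are read in the same direction, from the heavy-strand promoter, whereas mt-Nd6 is read from the light-strand promoter. The proteins join subunits encoded in the nucleus to form the complexes that carry electrons to oxygen and pump protons, a process on which resting and suppressive Treg are known to draw strongly.

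In the mm9 reference (assembly NCBIM37, GENCODE annotation), mt-Nd1 (ENSMUSG00000064341, chrM:2751-3707), mt-Nd2 (ENSMUSG00000064345, chrM:3914-4951), mt-Co1 (ENSMUSG00000064351, chrM:5328-6872), mt-Nd5 (ENSMUSG00000064367, chrM:11742-13565) and mt-Cytb (ENSMUSG00000064370, chrM:14145-15288) are on the plus strand, and mt-Nd6 (ENSMUSG00000064368, chrM:13552-14070) is on the minus strand. Each gene is annotated as a single exon without introns. Mitochondrial bases 6394 to 11042, 4649 bases in all, have a copy on the minus strand of chromosome 1 between 24618374 and 24623023, and the copy is made of 3 stretches that are identical base for base. The copy takes in the last 479 of the 1545 bases of mt-Co1 and none of the other 5 genes. Other nuclear copies exist, since 402 of the 1495 windows of 51 bases in mt-Co1 and 80 of the 988 in mt-Nd2 also occur on chromosome 2, against 429 and 0 on chromosome 1. Its start within mt-Co1 is printed here, with the bases shared by both places in capitals.
mt-Co1, mm9, chrM:6364-6423, plus strand: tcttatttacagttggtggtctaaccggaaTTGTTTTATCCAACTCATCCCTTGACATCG
Chromosome 1 copy, mm9, chr1:24622994-24623053, minus strand: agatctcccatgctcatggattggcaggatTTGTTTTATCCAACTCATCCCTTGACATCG

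The 30 bases before this junction matched at 12 positions, and from the junction on every base matched for the next 3067 bases. The only base that broke the identity between the first and second stretch was T9461C, given from the mitochondrial genome to the copy with positions counted on the mitochondrial genome. The second and the third stretch meet at a length difference of 1 base within mt-Tr. T9461C lies in mt-Nd3, a small complex I subunit, and is printed here as the capital because it decides whether a read from this gene can be placed.
mt-Nd3, mm9, chrM:9441-9481, plus strand: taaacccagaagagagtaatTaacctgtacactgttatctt
Chromosome 1 copy, mm9, chr1:24619936-24619976, minus strand: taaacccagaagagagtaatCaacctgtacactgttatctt

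Read pairs with 51 bases at each end of a 200-base fragment were simulated along each gene of the reference, and a pair was called unique when at least one of its reads occurred once in the genome. All pairs were unique in mt-Nd1, mt-Nd2, mt-Nd6 and mt-Cytb, as were 98.5% of those in mt-Nd5 and 68.1% of those in mt-Co1. The gene nearest to mt-Co1 on the other side of the choice was mt-Nd4, with 42.6% of pairs unique and 63.6% of its length in the copy. The other 6 protein genes had 2.01% (mt-Nd3) or 0% (mt-Co2, mt-Atp8, mt-Atp6, mt-Co3, mt-Nd4l). Of the genes of complex IV, mt-Co2, another catalytic core subunit with no unique pair, had at most 1 read in any library while mt-Co1 had at least 36277. The mt-Co1 values therefore rest on about 2 of every 3 of its possible pairs, and dividing its mean by its unique share would raise it from 6950 to 10213 TPM.

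**Figure D1:**
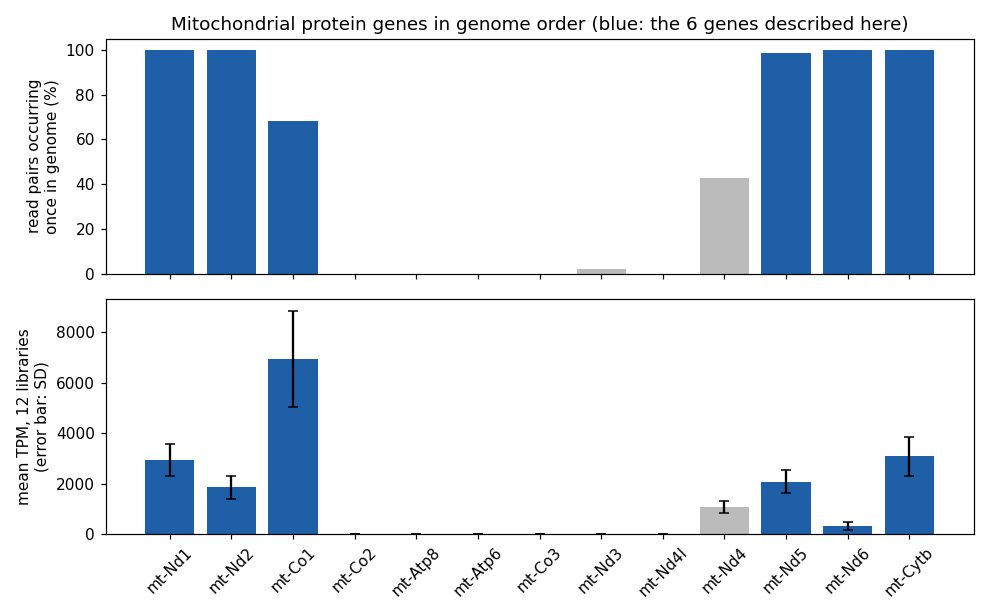
Share of simulated read pairs (200-base fragments, vertical axis in percent) that can be placed at one position for each of the 13 mitochondrial protein genes. The 6 genes described here stand at 68.1% to 100%, and mt-Nd4, at 42.6%, is the next below them.

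mt-Nd3 had 13, 15 and 33 reads in the unstimulated WT libraries, 21, 13 and 23 in the stimulated ones and 0 in all 6 libraries of cKO cells. mt-Nd4l (2 to 22 reads in WT, at most 1 in cKO libraries) and the tRNA gene mt-Tr (1 to 8 in WT, 0 in cKO libraries) split in the same way. Whether the mice of the groups differ in sequence from the reference at these places cannot be seen from these values, so the zeros are not read as absent transcripts. None of the 6 genes followed here showed such a split, since each had at least 813 reads in every library. At their lowest read numbers, counting error alone amounted to 0.53% to 1.2% of the value for the heavy-strand members and 3.51% for mt-Nd6.

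mt-Nd5 and mt-Nd6 end toward each other on opposite strands and share 14 bases, printed here in capitals in both directions because they set how much of either gene depends on strand.
mt-Nd5 end, mm9, chrM:13522-13595, plus strand: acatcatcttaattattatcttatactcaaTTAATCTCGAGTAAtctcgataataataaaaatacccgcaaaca
mt-Nd6 end, mm9, chrM:13522-13595, minus strand: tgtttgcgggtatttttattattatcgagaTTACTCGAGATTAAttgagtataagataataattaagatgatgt

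The libraries were made with a kit that keeps strand and were counted with that setting, so reads in this overlap are assigned by direction. The base composition of the genes follows the strand. In the sense direction G made up at most 16.1% of the 5 heavy-strand members and 28.1% of mt-Nd6, and C made up 23.8% to 27.7% and 5.97%.

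The deposited values are TPM, a measure of transcript abundance that corrects for gene length and sums to the same total in every library. Depth ranged from 8208659 to 20247649 reads on genes per library, lowest in the cKO stimulated group. One row, Gm10800, took 17.7% to 39.8% of all TPM in WT and 20.4% to 24.4% in cKO libraries before stimulation, and 32.6% to 44.4% and 42.9% to 55.9% after it. Its group mean was higher after stimulation in both genotypes, although the WT ranges overlap, and a larger share leaves less of the fixed total for every other gene. Levels below were therefore also scaled by TMM, which sets libraries to a common level through the genes that differ least, and are called scaled TPM. The median TPM of 1716 olfactory and vomeronasal receptor genes, which Treg are not known to use, was 0.56 to 1.15. Treg markers had medians of 141 TPM or more (Il2ra lowest), while markers of CD8 T, B, myeloid, NK, red and platelet cells had medians of at most 9.09 TPM (Cd8b1). One library, WT ex vivo 3, held 179 TPM of Xist, named after its values were seen, against at most 1.36 TPM in the others, and 0.097 TPM of the Y-linked Ddx3y against at least 14.7 TPM in the others. It thus came from a mouse of the other sex than the remaining 11 libraries, and it is named below where it matters.

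In TPM as deposited, mt-Co1, the catalytic subunit of cytochrome c oxidase, was the most abundant of the 6, at 6950 ± 1900 (SD, n = 12 libraries), and ranked 8 among all genes of the table by mean. mt-Cytb, the cytochrome b of complex III, stood at 3089 ± 768 and mt-Nd1, a membrane subunit near the quinone site of complex I, at 2936 ± 645. mt-Nd5 and mt-Nd2, both proton-pumping membrane subunits of complex I, stood at 2084 ± 459 and 1858 ± 449. mt-Nd6, a small membrane subunit of the same complex, was the least abundant at 323 ± 166 and ranked 110. Of the 5 steps in this order, 3 were seen in 12 of 12 libraries (mt-Co1 over mt-Cytb, mt-Nd1 over mt-Nd5, and mt-Nd2 over mt-Nd6). mt-Nd5 exceeded mt-Nd2 in 11 of 12. mt-Cytb and mt-Nd1 did not keep an order, since mt-Cytb was higher in all 6 ex vivo libraries and in only 2 of the 6 stimulated ones, with a median ratio of 1.02.

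Of the 13318 genes tested, mt-Co1 ranked 8 to 9 by level in WT ex vivo libraries and 6 to 7 in stimulated libraries of both genotypes. mt-Nd1 ranked 18 to 20 in WT and 15 to 17 in cKO cells before stimulation, and 10 to 12 and 10 to 13 after it. mt-Nd6 ranked 150 to 297 in WT ex vivo and 42 to 163 in WT stimulated libraries. The 5 heavy-strand members thus stood nearer the top of the ranking in every WT library after stimulation, whether or not their level was higher, and the mt-Nd6 ranks overlapped.

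The 5 heavy-strand members varied together. Over the 12 libraries their log2 scaled TPM correlated with each other at Pearson r of 0.82 to 0.97, and that of mt-Nd6 correlated with theirs at -0.33 to 0.08. These are descriptions across libraries that share groups, depth and scaling. The highest library exceeded the lowest by 1.61-fold for mt-Nd5, 1.82-fold for mt-Nd1, 1.96-fold for mt-Nd2, 2.09-fold for mt-Co1 and 2.10-fold for mt-Cytb, and by 3.35-fold for mt-Nd6.

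mt-Nd1 was at 2758, 3135 and 3645 scaled TPM in libraries 1 to 3 of WT cells taken ex vivo, and at 2887, 2999 and 3178 in those of cKO cells. After stimulation it was at 2884, 2824 and 3137 in WT and at 2458, 2729 and 1998 in cKO libraries. The 3 cKO stimulated libraries were thus the lowest of the 12, and the other groups overlapped.

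mt-Nd2 was at 1801, 2055 and 2485 scaled TPM in the WT libraries taken ex vivo, and at 1813, 1867 and 1992 in their cKO counterparts. After stimulation the WT libraries stood at 1867, 1863 and 2021 and the cKO libraries at 1352, 1540 and 1268. The cKO stimulated libraries again lay below all others, and the spread was widest in WT ex vivo, where library 3 was highest.

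mt-Nd5 was at 2018, 2318 and 2378 scaled TPM in WT libraries and at 2043, 2292 and 2351 in cKO libraries before stimulation. After it, WT libraries had 2043, 1988 and 2111 and cKO libraries 1653, 1908 and 1475. It was the steadiest of the 6, and only the cKO stimulated group stood apart.

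mt-Cytb was at 3244, 3374 and 4261 scaled TPM in WT libraries and at 3353, 3050 and 3633 in cKO libraries before stimulation. The stimulated WT libraries had 2706, 2827 and 2996, and the stimulated cKO libraries 2338, 2662 and 2030. Every stimulated library lay below every ex vivo library, and within the stimulated libraries every cKO value lay below every WT value.

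mt-Co1 was at 7253, 7383 and 9096 scaled TPM in unstimulated WT libraries and at 7619, 7102 and 9386 in unstimulated cKO libraries. Stimulated WT libraries had 5704, 6192 and 6379, and stimulated cKO libraries 5249, 6076 and 4485. The stimulated libraries all lay below the ex vivo ones, as for mt-Cytb, but those of WT and cKO overlapped.

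mt-Nd6 was at 185, 314 and 344 scaled TPM in unstimulated WT libraries and at 194, 353 and 220 in unstimulated cKO libraries. Stimulated WT libraries had 619, 189 and 495, and stimulated cKO libraries 253, 212 and 429. All groups overlapped, and within the WT stimulated group libraries 1 and 3 were the highest of the 12 while library 2 was near the lowest.

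**Figure D2:**
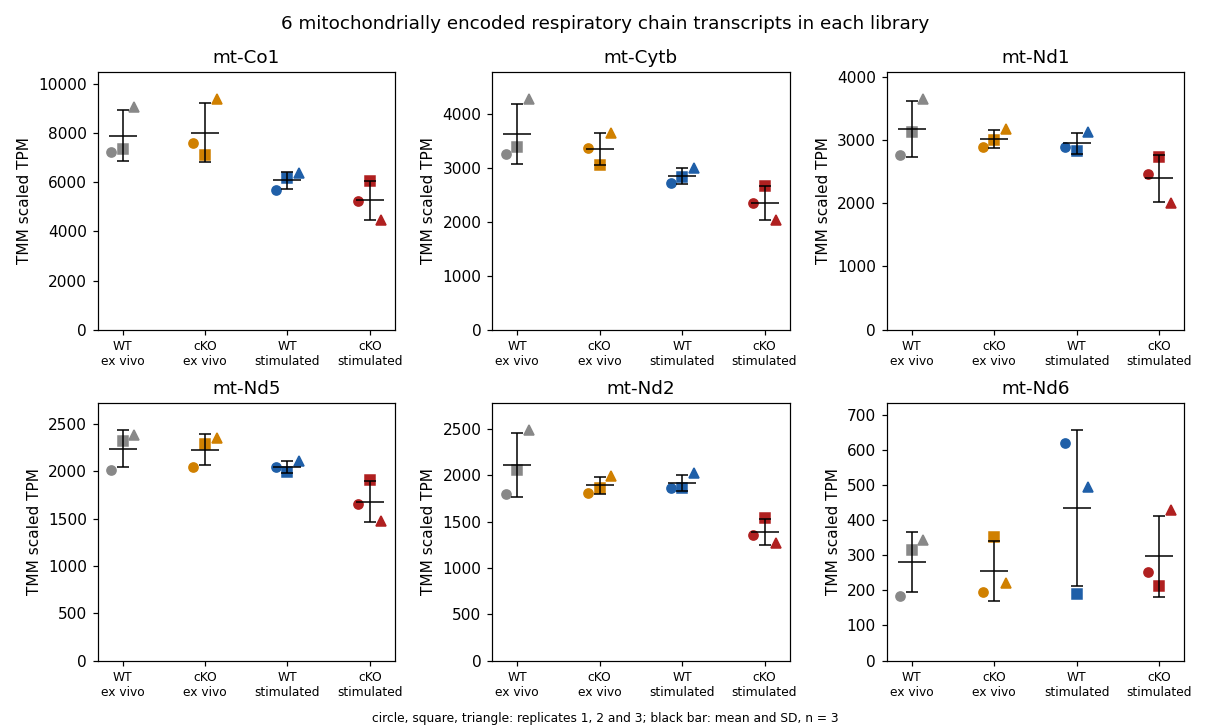
Scaled TPM of the 6 genes (vertical axes, one panel a gene) in the 12 libraries, with a symbol for each replicate and black bars for the group mean and SD (n = 3). The cKO stimulated libraries are lowest for mt-Nd1, mt-Nd2, mt-Nd5 and mt-Cytb, and mt-Nd6 ranges from 185 to 619 with all groups overlapping.

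The level of each gene was then read against mt-Nd5 in the same library, which removes the scaling between libraries. mt-Nd1 kept an almost constant ratio to mt-Nd5, with a coefficient of variation of 4.75% over the 12 libraries. The coefficient was 7.72% for mt-Nd2, 9.57% for mt-Cytb, 11.3% for mt-Co1 and 48.1% for mt-Nd6. mt-Co1 was 353% ± 32.3 of mt-Nd5 in WT and 361% ± 46.0 in cKO cells before stimulation, against 298% ± 16.6 and 313% ± 8.04 after it (SD, n = 3 each). mt-Cytb likewise was 162% ± 16.8 and 151% ± 15.9 ex vivo, and 139% ± 5.57 and 140% ± 1.89 after stimulation. mt-Nd2 was 94.1% ± 8.97 of mt-Nd5 in WT and 85.0% ± 3.67 in cKO cells ex vivo, with ranges that met at 88.7% and 88.8%, and 93.6% ± 2.19 and 82.8% ± 2.76 after stimulation, without overlap. No p is given for these ratios, which were looked at with the values known.

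mt-Nd6 as a share of mt-Nd5 was 9.16%, 13.6% and 14.4% in unstimulated WT libraries and 9.51%, 15.4% and 9.34% in unstimulated cKO libraries. After stimulation it was 30.3%, 9.50% and 23.4% in WT and 15.3%, 11.1% and 29.1% in cKO libraries. The 3 shares above 20% all came from stimulated libraries, 2 of WT and 1 of cKO, and each stimulated group also held a library within the ex vivo range. The tRNA genes read from the light strand were highest in the same 3 libraries. Their summed level, over 8 genes, was 1848, 406 and 1528 scaled TPM in stimulated WT libraries 1 to 3 and 772, 543 and 1293 in stimulated cKO libraries. Before stimulation it was 331, 549 and 599 in WT and 122, 842 and 428 in cKO libraries. These sums rest on 116 to 1085 reads a library. Among the 8 genes, mt-Tn, mt-Ty, mt-Ts1 and mt-Te have no unique 51-base window in the reference. mt-Te (chrM:14071-14139) also directly adjoins mt-Nd6 on the same strand. On the heavy strand mt-Tw, mt-Td and mt-Th have no unique window either. The 12 heavy-strand tRNA genes summed to 1021, 587 and 903 scaled TPM in stimulated WT and 546, 606 and 669 in stimulated cKO libraries, and to 619 to 802 and 775 to 902 before stimulation, so that stimulated WT libraries 1 and 3 were also their highest. The median of the receptor genes, a sign of reads that do not come from expressed genes, was 0.56 to 0.79 TPM in WT and 0.57 to 1.13 TPM in cKO libraries before stimulation. After stimulation it was 0.85 to 1.01 TPM in WT and 0.76 to 1.15 TPM in cKO libraries, and its part in the mt-Nd6 values was not tested.

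**Figure D3:**
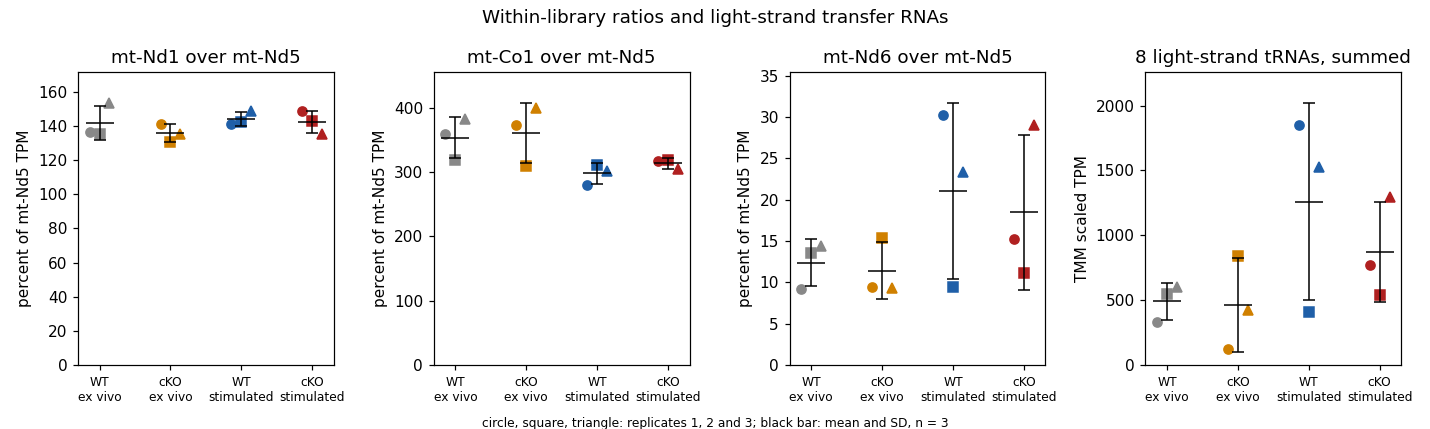
mt-Nd1, mt-Co1 and mt-Nd6 as percent of mt-Nd5 in each library, and the summed scaled TPM of 8 light-strand tRNA genes, with black bars for the group mean and SD (n = 3). The mt-Nd6 share runs from 9.16% to 30.3%, and its values above 20% are from stimulated libraries only.

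Differences between groups were tested with limma on log2(scaled TPM + 1) over all 13318 genes that reached a mean of 5 TPM in any group, with Benjamini-Hochberg adjustment, and all 6 genes passed that filter in every group. Because the labels do not say whether stimulated and ex vivo cells came from the same mice, the libraries were treated as separate samples. In bulk RNA, fewer mitochondria and less mitochondrial RNA per mitochondrion cannot be told apart.

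Ex vivo, no change was detected between cKO and WT Treg in any of the 6 genes. The tested log2 differences ranged from -0.15 ± 0.15 (SE; mt-Nd2, adjusted p = 0.685) to 0.020 ± 0.21 (mt-Co1, adjusted p = 0.981). limma called 0 of 6 genes, where 5.29% of all genes were called, 0 at an unadjusted p under 0.05, and 0 when the recovered reads were fitted with voom weights. Quantile normalization called mt-Nd2 as higher (0.37, adjusted p = 0.0208). The 95% interval for mt-Nd5, whose difference was closest to 0, ran from -0.32 to 0.31, and that for mt-Nd6 ran from -1.11 to 0.84. For 5 of the genes the sign turned on a single library, WT ex vivo 3 among them, since leaving out 1 library at a time gave ranges of -0.16 to 0.035 for mt-Nd1, -0.077 to 0.053 for mt-Nd5, -0.41 to 0.033 for mt-Nd6, -0.18 to 0.0094 for mt-Cytb and -0.10 to 0.12 for mt-Co1. None of the 6 lay wholly to one side of WT in scaled TPM, where 9.95% of all genes lay wholly below.

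After stimulation, the levels in cKO Treg were below those in WT Treg for all 6 genes, and none passed the adjusted threshold. With quantile normalization mt-Nd5 (0.054), mt-Cytb (0.037) and mt-Co1 (0.21) turned above 0 and mt-Nd2 was called as lower. mt-Nd2 differed most, with a group mean of 1387 ± 139 scaled TPM in cKO against 1917 ± 90.4 in WT (SD, n = 3 each). Its log2 difference was -0.47 ± 0.15 (SE) with a 95% interval of -0.80 to -0.15, an unadjusted p of 0.00872 and an adjusted p of 0.0844 by limma. With voom weights on the recovered reads the adjusted p was 0.0219, and over all alternatives it ran from 0.0219 to 0.355. The other log2 differences were -0.31 for mt-Nd1 (adjusted p = 0.287), -0.29 for mt-Nd5 (adjusted p = 0.237), -0.29 for mt-Cytb (adjusted p = 0.326), -0.22 for mt-Co1 (adjusted p = 0.546) and -0.44 for mt-Nd6 (adjusted p = 0.567). With a filter at 1 TPM and in TPM as deposited all 6 differences were larger, at -0.78 to -0.53 and -0.76 to -0.51, and none passed the adjusted threshold. The median of all genes was -0.31 and -0.30 in these settings, against -0.03 in the reported fit. Relative to it the 6 genes lay at -0.47 to -0.22 and -0.46 to -0.21, against -0.44 to -0.18. limma thus called 0 of 6 genes, 1 at an unadjusted p under 0.05, where 6.93% of all genes were called.

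Without any model, the 3 cKO values lay wholly below the 3 WT values for 4 of the 6 genes (mt-Nd1, mt-Nd2, mt-Nd5 and mt-Cytb), and 18% of all tested genes did so on the same scale. In TPM as deposited mt-Co1 joined them, against 27.1% of all genes. The group mean share of Gm10800 was higher in these cKO libraries than in WT libraries, with overlapping ranges, and its part in the TPM as deposited is direct, since TPM sum to a constant. Of the TPM outside Gm10800, the 6 genes together took 2.67% to 3.08% in the WT libraries and 1.94% to 2.58% in the cKO libraries after stimulation, without overlap. Before stimulation they took 2.39% to 2.53% in WT and 2.48% to 2.89% in cKO libraries, so that on this measure the WT libraries were higher after stimulation without overlap and the cKO ranges overlapped.

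In WT Treg, stimulation for 4 h was accompanied by lower scaled TPM of mt-Cytb and mt-Co1 in every library, by amounts that did not pass the test. The sign turned under other scalings, with log2 changes of 0.11 (mt-Cytb) and 0.078 (mt-Co1) for TPM rescaled without Gm10800 and of 0.41 and 0.69 with quantile normalization. Without Gm10800 the median of all genes moved to 0.42. Relative to it the changes were -0.31 (mt-Cytb) and -0.34 (mt-Co1), against -0.34 and -0.37 in the reported fit. With quantile normalization they also lay above the median of all genes, at 0.38 and 0.66 relative to it. mt-Cytb was at 3627 ± 554 scaled TPM ex vivo and 2843 ± 146 after stimulation, with a log2 change of -0.34 ± 0.17 (SE, adjusted p = 0.147). mt-Co1 was at 7911 ± 1028 and 6092 ± 349, with a log2 change of -0.37 ± 0.21 (adjusted p = 0.194). Without WT ex vivo 3, the library of the other sex, these changes were -0.21 (mt-Cytb) and -0.26 (mt-Co1). With a filter at 1 TPM they were -0.60 and -0.63, or -0.37 and -0.40 relative to the median of all genes. The changes of mt-Nd1, mt-Nd2 and mt-Nd5 were -0.10, -0.13 and -0.13, with adjusted p of 0.533 to 0.679, and intervals of -0.47 to 0.27, -0.45 to 0.20 and -0.44 to 0.19. Leaving out 1 library moved mt-Nd1 between -0.20 and 0.013 and mt-Nd2 between -0.24 and 0.0044, and in both the value above 0 came without WT ex vivo 3. All 3 also lay above 0 in TPM as deposited (0.10, 0.070 and 0.074), in TPM rescaled without Gm10800 (0.35, 0.32 and 0.32) and with quantile normalization (0.77, 0.85 and 0.75). The median of all genes was 0.18 as deposited and 0.42 without Gm10800. Relative to it all 3 lay below 0, at -0.084, -0.11 and -0.11 as deposited and at -0.070, -0.099 and -0.095 without Gm10800. With quantile normalization they lay above the median of all genes too. mt-Nd6 was the exception in sign, at 0.51 ± 0.44 (adjusted p = 0.409), with an interval of -0.46 to 1.48. limma called 0 of the 6, 0 at an unadjusted p under 0.05 and 0 with voom weights, where 32% of all genes were called, and 2 of the 6 were lower without overlap, as were 26.3% of all genes. Quantile normalization called 5 of the 6, all but mt-Nd6, in the opposite direction, as higher. In TPM as deposited none of the 6 was lower without overlap, against 9.9% of all genes.

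In cKO Treg, 4 of the 6 genes fell with stimulation. mt-Co1 fell by 0.61 on the log2 scale (SE 0.21, adjusted p = 0.0336, 95% interval -1.06 to -0.16), from 8036 ± 1198 to 5270 ± 796 scaled TPM (SD, n = 3 each). mt-Cytb fell by 0.52 (SE 0.17, adjusted p = 0.0287), from 3346 ± 292 to 2344 ± 316. mt-Nd2 fell by 0.45 (SE 0.15, adjusted p = 0.0298), from 1891 ± 91.7 to 1387 ± 139, and mt-Nd5 fell by 0.41 (SE 0.14, adjusted p = 0.0359), from 2229 ± 163 to 1679 ± 217. With voom weights on the recovered reads 5 genes were called as lower, mt-Nd1 among them. The change of mt-Nd1 in the limma fit was -0.35 ± 0.17 (adjusted p = 0.114), with all 3 stimulated libraries below all 3 ex vivo ones, and that of mt-Nd6 was 0.20 ± 0.44 (adjusted p = 0.728). These 4 calls by limma stand beside 43.8% of all tested genes called in this comparison (26.5% of all tested genes were called as lower), and the 5 genes lower without overlap stand beside 30.7% of all genes. In TPM as deposited the same 5 lay wholly below, beside 43.9% of all genes.

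These calls depended on the libraries and the processing, since 1 gene was called with the replicate number as a block, 1 with a pseudocount of 0.1 and 0 with no filter on low values. The size of the changes was similar in these fits. Relative to the median of all genes, the heavy-strand members lay at -0.60 to -0.34 with the block and in the reported fit. They lay at -0.59 to -0.33 with the pseudocount and -0.65 to -0.39 with no filter. With 1 library left out at a time, 4 genes were called without any WT ex vivo library or without cKO stimulated 2, 2 without cKO ex vivo 2 or any WT stimulated library, and 0 without cKO ex vivo 1, cKO ex vivo 3, cKO stimulated 1 or cKO stimulated 3. In place of TMM, rescaling the TPM without Gm10800 called 0, and quantile normalization, which sets each level by its rank alone, called 4 genes as higher (mt-Nd1, mt-Nd5, mt-Cytb and mt-Co1). The ranks show the same, since mt-Nd1 moved from ranks 15 to 17 in cKO ex vivo to ranks 10 to 13 in cKO stimulated libraries while its scaled TPM was lower. The size of the change moved as well, since the log2 changes of the 4 called genes were -0.34 to -0.15 with TPM rescaled without Gm10800 and -1.16 to -0.96 with a filter at 1 TPM. Relative to the median of all genes it moved less. The 4 genes lay at -0.58 to -0.38 and at -0.65 to -0.46 there, against -0.60 to -0.40 in the reported fit. mt-Nd6 turned below 0 in TPM as deposited (-0.13), with a filter at 1 TPM (-0.35) and with no filter (-0.34). The medians of all genes were -0.31, -0.50 and -0.49 in these settings. Relative to them mt-Nd6 lay at 0.18, 0.16 and 0.16, against 0.21 in the reported fit.

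**Figure D4:**
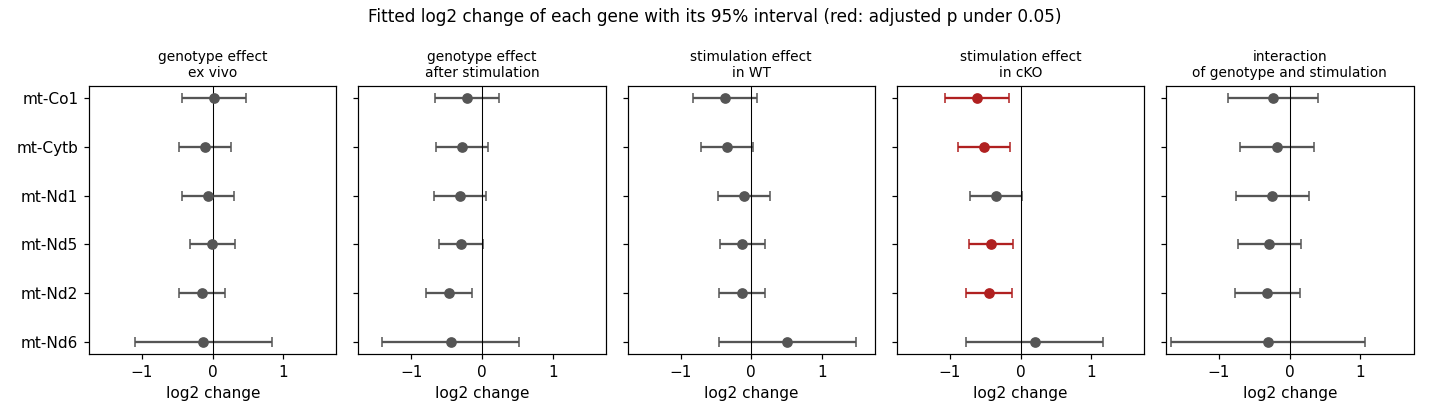
Log2 changes of the 6 genes with 95% intervals in the 5 comparisons, one panel each, with changes at an adjusted p under 0.05 in red. In cKO cells the intervals of mt-Nd2, mt-Nd5, mt-Cytb and mt-Co1 lie below 0, and those of mt-Nd6 span 0 throughout.

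**Figure D5:**
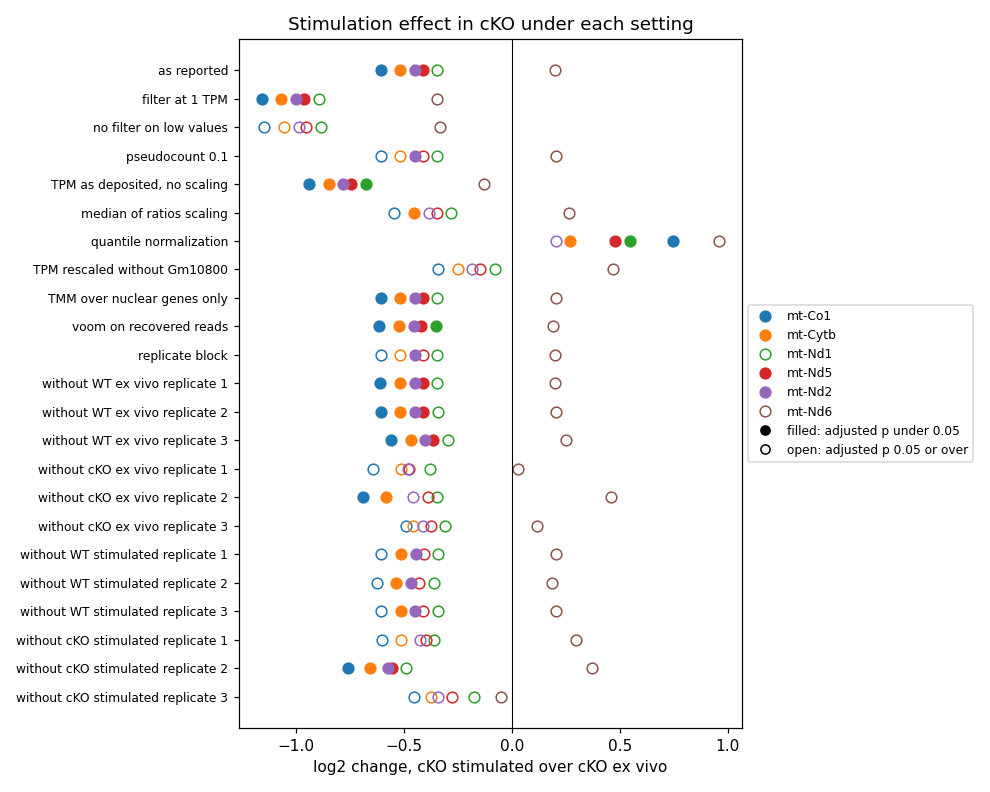
Log2 change of each gene with stimulation in cKO cells (horizontal axis) under each processing setting and with each library left out, filled where the adjusted p is under 0.05. Quantile normalization alone places the heavy-strand members above 0, at 0.21 (mt-Nd2) to 0.75 (mt-Co1).

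Whether stimulation acted differently in the genotypes was tested as an interaction. The interaction was below 0 for all 6 genes, from -0.32 ± 0.21 (SE; mt-Nd2, adjusted p = 0.508) to -0.18 ± 0.24 (mt-Cytb, adjusted p = 0.770), and limma called none of the 6, 0 at an unadjusted p under 0.05 and 0 with voom weights, where 1.1% of all genes were called. Quantile normalization called mt-Nd2 and placed mt-Co1 at 0.056, and leaving out 1 library moved mt-Nd6 between -0.82 and 0.033. In TPM as deposited the interactions were -0.85 to -0.71, with none past the threshold. The median of all genes was -0.52 there. Relative to it the 6 genes lay at -0.34 to -0.19, against -0.29 to -0.14 in the reported fit. The 4 calls in cKO and 0 in WT are therefore not shown to differ. The comparisons share groups (the cKO stimulated libraries enter the genotype and the stimulation contrasts), so the values for a gene in these are not separate evidence.

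Of the other mitochondrial genes, mt-Nd4, a proton-pumping subunit of complex I counted over its unique part, was at 1078 ± 132 scaled TPM in WT and 1024 ± 35.1 in cKO cells before stimulation, and at 1204 ± 26.6 and 907 ± 78.6 after it (SD, n = 3 each). The tRNA genes between the members were covered by few reads in these libraries. Of 18 tested tRNA genes, 17 lay above 0 with stimulation in WT and 12 in cKO cells, with medians of 1.16 and 1.00, and 2 higher and 1 lower passed the test in WT and 1 higher and 1 lower in cKO, where 32% and 43.8% of all genes were called. For the 7 tested light-strand tRNA genes the medians were 1.36 and 1.33, with 0 and 1 called, and for the 11 heavy-strand ones 1.04 in WT and 0 in cKO cells, where 5 lay above and 5 below 0. That cKO median is the value of mt-Tr, which had 0 reads in every cKO library, so its change there was fixed at 0. mt-Tr also counts among the 18 tested genes, above 0 in WT only. mt-Nd6, on the light strand, had the changes of 0.51 and 0.20 given above.

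The proteins that copy, transcribe and process the mitochondrial genome are encoded in the nucleus. A list of 44 factors, which holds such proteins and also nuclear regulators of mitochondrial genes, was all in the table, and 36 were tested. Ex vivo 1 was lower and 0 were higher in cKO cells, with a median log2 difference of -0.06 against -0.01 over all genes, where 5.29% of all genes were called. That gene was Rexo2, an oligoribonuclease that clears short RNAs, at 50.9 ± 13.5 scaled TPM in WT and 28.0 ± 3.09 in cKO libraries (log2 difference -0.81, adjusted p = 0.0311). The call was lost without WT ex vivo 3 (adjusted p = 0.0912) and without any single cKO ex vivo library (0.0572 to 0.115). After stimulation, where 6.93% of all genes were called, 1 was lower and 0 were higher, Polg2, the accessory subunit of the mitochondrial DNA polymerase (-0.42, adjusted p = 0.0413), a call that was kept in 3 of the 12 fits without a library, with adjusted p of 0.0392 to 0.154.

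With stimulation 8 of the 36 factors fell and 2 rose in WT cells, and 9 fell and 5 rose in cKO cells, with medians of -0.18 and -0.11 against 0.00 and -0.01 over all genes. These counts stand beside 32% and 43.8% of all genes called, so the list as a whole was not called more often than other genes. Among the factors that start transcription, Tfb2m, which opens the promoter, fell from 11.5 ± 0.15 to 6.07 ± 0.36 scaled TPM in WT (-0.82, adjusted p = 3.11e-05) and from 9.38 ± 0.56 to 6.82 ± 0.36 in cKO cells (-0.41, adjusted p = 0.00223). Tfam, which packs the mitochondrial DNA and bends its promoters, fell in cKO cells (-0.43, adjusted p = 0.0110). Polrmt, the RNA polymerase itself, rose in cKO cells from 6.94 ± 0.37 to 11.1 ± 1.16 (0.60, adjusted p = 0.000663). Polg2 fell in WT (-0.58) and in cKO cells (-1.36, from 25.1 ± 2.43 to 9.12 ± 0.09, adjusted p = 6.26e-06). Its interaction of -0.78 had an adjusted p of 0.0419, which stayed under the threshold in 2 of the 12 fits without a library (0.0396 to 0.117), and over all alternatives the adjusted p ran from 0.00567 to 0.507.

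Of the factors that process and protect the transcripts, several moved in the same direction in both genotypes. Elac2, which trims the tRNA ends, fell by 0.46 in WT and 0.57 in cKO cells, and Mtpap, the mitochondrial poly(A) polymerase, fell by 0.35 and 0.51, although its WT change was 0.077 in TPM rescaled without Gm10800. Tbrg4, an RNA-binding protein that stabilizes mitochondrial mRNAs, fell by 0.53 and 0.56. Fastkd3, of the same family, rose by 0.43 and 0.90. In cKO cells Hsd17b10, a part of the mitochondrial RNase P, fell by 0.54 and Supv3l1, the helicase that feeds RNA to degradation, fell by 0.52. Taco1, a translational activator for the mt-Co1 mRNA, rose by 0.40 in the same cells, although its change was -0.088 with a filter at 1 TPM and -0.078 with no filter. Rexo2 fell by 0.64 in WT cells. The median of all genes was 0.42 in WT without Gm10800, above the Mtpap value. In cKO cells it was -0.50 with a filter at 1 TPM and -0.49 with none, below the Taco1 values.

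Of the nuclear regulators of mitochondrial genes, Pprc1, a coactivator of the PGC-1 family, rose by 0.37 in WT and 0.49 in cKO cells, although its cKO change was -0.025 with a filter at 1 TPM and -0.014 with none. Its relative Ppargc1b fell by 0.69 in WT cells. Gabpb1, a subunit of a factor that acts on the promoters of Tfam and Tfb2m, fell by 0.38 in WT and 0.90 in cKO cells, although its WT change was 0.039 in TPM rescaled without Gm10800. Esrra, an orphan nuclear receptor, rose by 0.41 in cKO cells, although its change was -0.081 with a filter at 1 TPM and -0.071 with none. Against the medians of all genes in these settings, Gabpb1 stayed lower and Pprc1 and Esrra stayed higher. Leaving out 1 library at a time ended the call in at least 1 of 12 fits for Fastkd3, Mtpap, Rexo2, Ppargc1b, Pprc1 and Gabpb1 in WT and for Hsd17b10, Taco1 and Esrra in cKO cells, with adjusted p of up to 0.149.

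The nuclear subunits of the complexes that the 6 genes belong to moved with stimulation in part. Of 35 tested complex I subunits, 1 rose and 7 fell in WT and 3 rose and 7 fell in cKO cells, with medians of -0.16 and -0.17, in comparisons that called 32% and 43.8% of all genes. Of 9 complex III subunits, 3 fell and 0 rose in each genotype. Of 13 complex IV subunits, 5 fell and 1 rose in each genotype, with medians of -0.36 and -0.35. Between genotypes 1 subunit of these lists, in complex I, passed the test ex vivo and 0 did after stimulation, where 5.29% and 6.93% of all genes were called. The medians of the 6 mitochondrial genes were -0.13 in WT and -0.43 in cKO cells.

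The genes whose log2 scaled TPM over the 12 libraries was most like the mean of the 6 were Arl6ip1 (Pearson r = 0.94), Atp5h (0.91), Trim59 (0.89), Eid1 (0.89) and Gyg (0.88), all of them nuclear, and 83 of 13312 genes had r above 0.8. With the mean of the 5 heavy-strand members alone, a comparison added after the values were seen, they were Bcap31 (0.97), Spcs2 (0.97), Gm6863 (0.96), Cdkn2aipnl (0.96) and Trmt11 (0.96), and 1084 genes had r above 0.8. With mt-Nd6 alone, added in the same way, the closest were the light-strand tRNA gene mt-Tq (0.94), Gm13803 (0.87), 2810001G20Rik (0.84), the light-strand tRNA gene mt-Te (0.84) and Gm17624 (0.83), with the heavy-strand mt-Tw at 0.82, and 11 of 13317 genes passed 0.8. mt-Te and mt-Tw have no unique 51-base window, and mt-Te adjoins mt-Nd6 on the same strand. The points share libraries, depth and scaling.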

How the data were processed

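RNA was depleted of ribosomal RNA, made into stranded libraries and sequenced as 51-base pairs. Per the labels and the study's methods, the authors aligned with STAR 2.6.0c to mm9 and counted with HTSeq 0.6.1. The authors deposited TPM, a length-corrected signal that sums to 1000000 per library, and its log2 after adding what 1 read is worth. From both columns the reads behind each value were recovered, and 99.9977% were whole within 0.01 reads (10 values were not). The authors' own comparisons, made with edgeR, were not used.

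Here TMM factors were computed on the TPM of the 13318 genes that reached a mean of 5 TPM in any group (trims of 30% and 5%). limma 3.58.1 in R 4.3.3 was fitted to log2(scaled TPM + 1) over all 12 libraries and 4 groups, two-sided, with Benjamini-Hochberg adjustment and calls at 0.05. As the values are TPM, a log-scale test took the place of a count model. Fold changes of low genes are understated on this scale. voom on the recovered reads called 1203 and 1247 genes for genotype ex vivo and after stimulation, and 4872 and 6239 for stimulation in WT and cKO. Alternatives covered the filter, pseudocount, scaling, replicate number and each library. The fit was tested on simulated data.

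Uniqueness was computed from 51-base windows and pairs of 200-base fragments. Named genes are the 6 members, the other mitochondrial protein genes, Ikzf1, Gm10800, the 5 genes most like the mean of the members, and every called factor of the list. Marker genes are named from a fixed list, and Xist, Ddx3y, the named tRNA genes and the genes most like mt-Nd6 or the heavy-strand members were named after their values were seen. The genes and lists were chosen with earlier results of these data known. Whether ex vivo and stimulated libraries share mice is not given in the sources used here (WT ex vivo 3, of the other sex, shares none).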

Additional observations from a re-analysis of the deposited data

Results flagged for a closer look

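The change of Polg2 with stimulation differed between the genotypes by the interaction test, with a log2 value of -0.78 (cKO change minus WT change, adjusted p = 0.0419 by limma). The call held in 2 of 12 fits without a library, and over all alternatives the adjusted p ran from 0.00567 to 0.507, the highest with a filter at 1 TPM, where 0 of 33873 genes passed the interaction test in limma (2405 at an unadjusted p under 0.05, and 395 of 13318 passed with voom under the 5 TPM filter).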

How the results depend on the processing

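The number of the 6 genes called with stimulation in cKO cells was 4 in the reported fit, 4 with a filter at 1 TPM, 4 with TMM over nuclear genes, 5 with voom, 5 with TPM as deposited, 0 with no filter on low values, 1 with a pseudocount of 0.1 (mt-Nd2), 1 with median of ratios scaling (mt-Cytb), 0 with TPM rescaled without Gm10800, 1 with the replicate number as a block (mt-Nd2, adjusted p = 0.0489), and 4 in the opposite direction with quantile normalization. Leaving out 1 library gave 0 to 4 calls there and 0 to 0 in the other 4 comparisons. The block left the other 4 comparisons at 0 calls. Same-numbered libraries correlated at -0.21 to 0.26, so the numbers were not taken to pair them. In the other comparisons quantile normalization called 1 gene ex vivo (mt-Nd2 higher), 1 between genotypes after stimulation (mt-Nd2 lower), 5 in WT (all higher) and 1 in the interaction (mt-Nd2), and voom called 1 after stimulation (mt-Nd2 lower). The cause of these shifts was not tested.

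Signs turned as follows on the log2 scale. With TPM as deposited, the genotype difference ex vivo became 0.17 (mt-Nd1), 0.090 (mt-Nd2), 0.23 (mt-Nd5), 0.10 (mt-Nd6) and 0.13 (mt-Cytb), the WT stimulation change 0.10 (mt-Nd1), 0.070 (mt-Nd2) and 0.074 (mt-Nd5), and the cKO stimulation change of mt-Nd6 -0.13. The median of all genes was 0.21 ex vivo, 0.18 in WT and -0.31 in cKO stimulation there. Relative to it the ex vivo values were -0.034 (mt-Nd1), -0.12 (mt-Nd2), 0.026 (mt-Nd5), -0.10 (mt-Nd6) and -0.078 (mt-Cytb). With TPM rescaled without Gm10800, ex vivo became 0.10 (mt-Nd1), 0.018 (mt-Nd2), 0.16 (mt-Nd5), 0.031 (mt-Nd6) and 0.058 (mt-Cytb), and WT stimulation 0.35 (mt-Nd1), 0.32 (mt-Nd2), 0.32 (mt-Nd5), 0.11 (mt-Cytb) and 0.078 (mt-Co1). The median of all genes was 0.15 ex vivo and 0.42 in WT stimulation there. Relative to it the ex vivo values were -0.045 (mt-Nd1), -0.13 (mt-Nd2), 0.015 (mt-Nd5), -0.12 (mt-Nd6) and -0.089 (mt-Cytb). The WT stimulation changes were -0.34 to -0.070 relative to it. With quantile normalization, ex vivo became 0.19 (mt-Nd1), 0.37 (mt-Nd2), 0.33 (mt-Nd5), 0.040 (mt-Nd6) and 0.18 (mt-Cytb), genotype after stimulation 0.054 (mt-Nd5), 0.037 (mt-Cytb) and 0.21 (mt-Co1), WT stimulation 0.77 (mt-Nd1), 0.85 (mt-Nd2), 0.75 (mt-Nd5), 0.41 (mt-Cytb) and 0.69 (mt-Co1), cKO stimulation 0.54 (mt-Nd1), 0.21 (mt-Nd2), 0.48 (mt-Nd5), 0.27 (mt-Cytb) and 0.75 (mt-Co1), and the interaction of mt-Co1 0.056. The cKO stimulation change of mt-Nd6 was -0.35 with a filter at 1 TPM and -0.34 with none. Relative to the median of all genes it was 0.16 in both, and 0.18 in TPM as deposited. Among factors, the WT change became 0.077 (Mtpap) and 0.039 (Gabpb1) without Gm10800, and the cKO change became -0.088 (Taco1), -0.025 (Pprc1) and -0.081 (Esrra) with the 1 TPM filter and -0.078, -0.014 and -0.071 with none. The medians of all genes were 0.42, -0.50 and -0.49 in these settings. Mtpap and Gabpb1 thus stayed below the median and Taco1, Pprc1 and Esrra above it.

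The median of all genes shifted by scaling, from -0.01 to -0.50 in cKO stimulation with the 1 TPM filter, to -0.31 as deposited and to 0.24 without Gm10800. Leaving out 1 library gave ex vivo ranges of -0.16 to 0.035 (mt-Nd1), -0.077 to 0.053 (mt-Nd5), -0.41 to 0.033 (mt-Nd6), -0.18 to 0.0094 (mt-Cytb) and -0.10 to 0.12 (mt-Co1), WT stimulation ranges of -0.20 to 0.013 (mt-Nd1) and -0.24 to 0.0044 (mt-Nd2), a cKO range of -0.051 to 0.46 (mt-Nd6) and an interaction range of -0.82 to 0.033 (mt-Nd6). Of the log2 changes of the 6 genes under other settings, 238 of 300 kept direction and side of the threshold, and 322 of 360 did without a library. Most of these were not called in the reported fit and counted as kept by staying uncalled. The calls with stimulation in cKO cells were kept in 7 (mt-Nd2), 4 (mt-Nd5), 8 (mt-Cytb) and 5 (mt-Co1) of 12 fits without a library. Of the log2 changes of the named factors, 197 of 270 kept both under other settings and 273 of 324 without a library. Unique shares moved to 96.8% of pairs for mt-Nd2 and 100% for mt-Nd5 with 100-base fragments, and to 69.2% and 75.4% for mt-Co1 with 100 and 300 bases. The lowest read number was 813 for mt-Nd6, where counting error was 3.51%.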
